A study of Rattus norvegicus with 4 samples.

Results

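Mitochondrial ribosomal proteins were followed in neonatal rat ventricular myocytes exposed to carfilzomib, a covalent proteasome inhibitor used against multiple myeloma. The genes were taken by spelling alone: every row of the expression table whose symbol reads Mrp, then l or s, then a number and at most 1 letter. This gave 76 of the 18699 genes in the table, 46 named for the large subunit (Mrpl) and 30 named for the small subunit (Mrps). No measured value entered the choice. The carfilzomib group held 2 libraries from wild-type cells given 1 µM of the drug for 24 h, and the vehicle group held 2 libraries from wild-type cells given vehicle over the same 24 h. All 4 came from hearts of Sprague Dawley rats aged 1 to 3 days, cultured with serum and 0.1 mM of the thymidine analogue bromodeoxyuridine, which limits the growth of cells other than myocytes. The labels do not say whether the 2 libraries of a group are separate cultures, so every p-value given here rests on the spread among these 4 libraries alone, and that spread may be purely technical.

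Mitochondria carry their own ribosome, which translates the few messages of the mitochondrial genome, all of them encoding membrane subunits of the respiratory chain and ATP synthase. Its RNAs come from mitochondrial DNA, while every one of its proteins is encoded in the nucleus, made in the cytosol and imported. Many of the proteins have counterparts in the bacterial ribosome, and others are found only in mitochondria. The heart depends on this ribosome because its contraction runs almost entirely on oxidative phosphorylation.

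Total estimated counts lay between 18655499 and 18884362 per library, and levels are given as CPM, read counts scaled to a common library size with TMM factors. Across all 14519 genes tested with edgeR's quasi-likelihood test, 8812 passed a Benjamini-Hochberg adjusted p of 0.05, which is 60.7%, with 30.6% higher and 30.1% lower under carfilzomib. The median log2 fold change of all genes was 0.00. Cell type markers moved with the groups. All 11 cardiomyocyte markers were lower, and their summed level was 6696 and 6478 CPM in the carfilzomib libraries, against 30251 and 29997 CPM in the vehicle libraries. All 10 fibroblast markers were also lower (15734 and 15014 CPM against 28005 and 28545 CPM), as were all 5 smooth muscle markers (1323 and 1287 CPM against 3755 and 3893 CPM). Of 6 macrophage markers, 4 were tested and all 4 were lower, with sums of 27.0 and 25.2 CPM with carfilzomib against 70.7 and 71.8 CPM with vehicle. Of 5 endothelial markers, 1 was higher and 2 were lower, and their sums, 60.4 and 59.9 CPM with carfilzomib and 59.7 and 60.2 CPM with vehicle, lay close together. In RNA from whole cultures, fewer cells of a type and less RNA per cell cannot be told apart. The part of these shifts in the results that follow was not tested.

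With carfilzomib, 35 of the 75 mitochondrial ribosomal protein genes that could be tested were higher and 11 were lower, while 29 did not pass. The higher calls made up 46.7% of the members tested, beside 30.6% of all genes, and the lower calls 14.7%, beside 30.1%. The share called in either direction, 61.3%, was near the 60.7% of all genes. The changes were small. The median log2 fold change of the members was 0.19, the lowest was −0.88 and the highest 1.33, and Mrpl49 alone reached a 2-fold difference. In 45 members both carfilzomib libraries lay above both vehicle libraries, and in 13 both lay below. Over all genes tested those orders were seen in 39.8% and 40% of genes. The member that failed the filter on low counts was Mrps21l, which had 0 and 2.56 estimated counts in the carfilzomib libraries and 0 in both vehicle libraries.

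**Figure D1:**
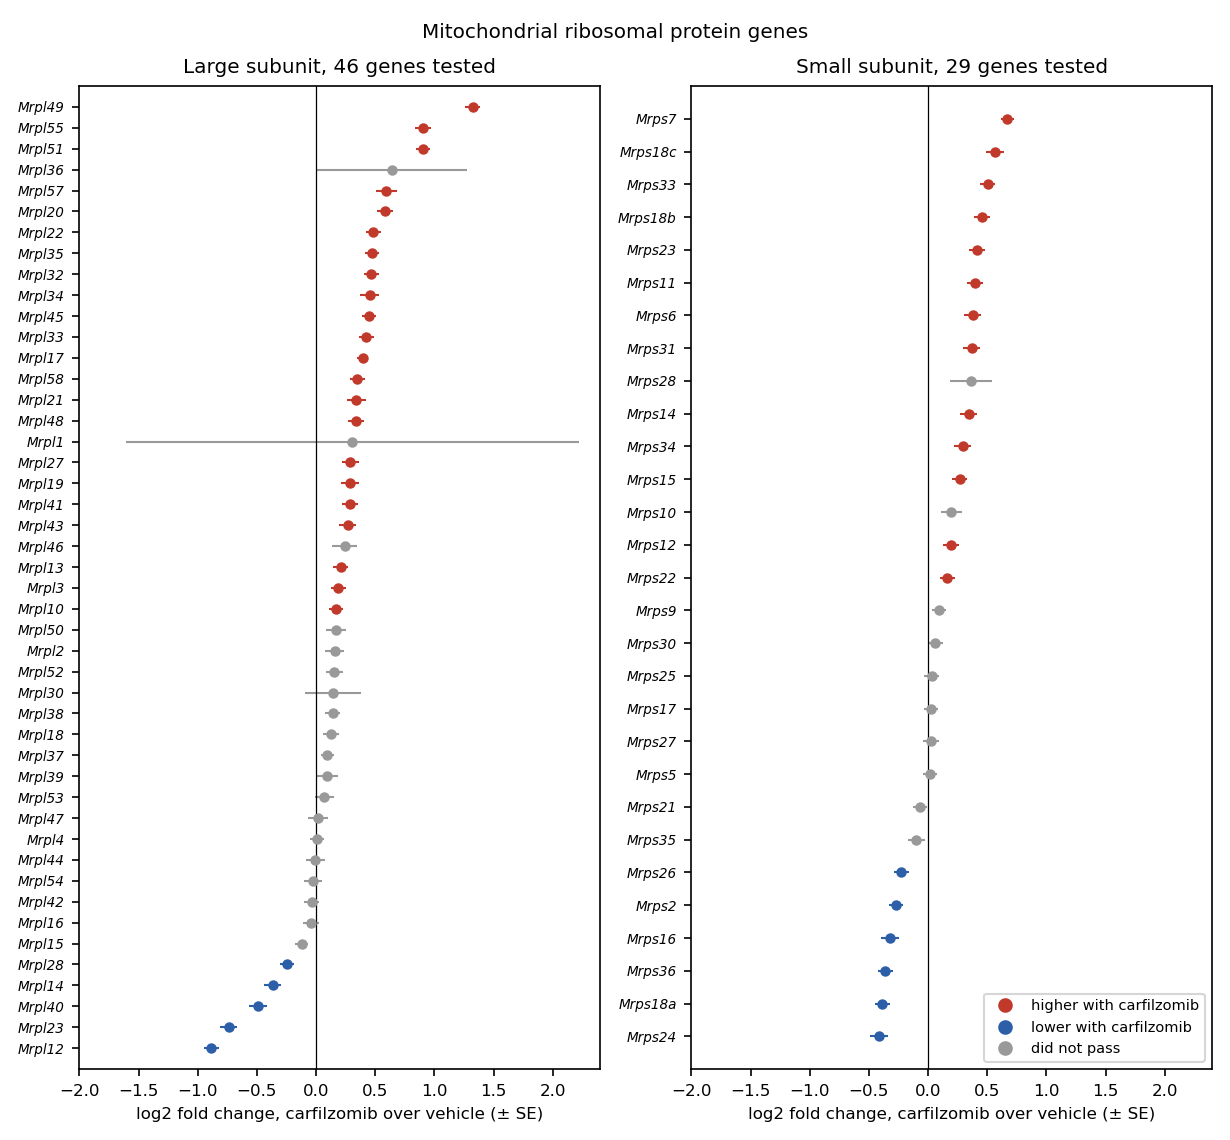
Log2 fold change, carfilzomib over vehicle, with its standard error for the 46 large-subunit genes and the 29 small-subunit genes tested, each row a gene, coloured by edgeR call. Most genes lie between 0 and 0.5, Mrpl49 stands highest at 1.33, Mrpl12 lowest at −0.88, and Mrpl1 and Mrpl36 have the widest error bars.

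The summed level of the 76 genes was 3135 and 3098 CPM in the carfilzomib libraries and 2712 and 2788 CPM in the vehicle libraries. As a share of estimated counts this was 0.317% and 0.313% with carfilzomib, against 0.268% and 0.275% with vehicle. The groups did not overlap. This sum is a description of 2 against 2 libraries, for which no test was made.

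Both subunits moved the same way. Of the 46 large-subunit genes, 22 were higher (47.8%) and 5 lower (10.9%), and 19 did not pass. Their median log2 fold change was 0.20. Of the 29 small-subunit genes tested, 13 were higher (44.8%) and 6 lower (20.7%), and 10 did not pass. Their median was 0.16. The shares over all genes tested were 30.6% higher and 30.1% lower. Summed levels of the large subunit were 1982 and 1957 CPM in carfilzomib libraries and 1681 and 1720 CPM in vehicle libraries. Those of the small subunit were 1153 and 1142 CPM with carfilzomib and 1031 and 1067 CPM with vehicle. In both subunits the sums separated the groups, and the higher counts stayed between 19 and 22 in the large and between 11 and 13 in the small subunit when 1 library was left out.

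The difference between the subunits turned on which genes were counted in which. By symbol, the ratio of small to large sums was 0.582 and 0.583 with carfilzomib, against 0.614 and 0.620 with vehicle. Of the genes named for the small subunit, Mrps30 and Mrps18a encode proteins that sit in the large subunit of the mammalian mitochondrial ribosome, and Mrps36, listed by RefSeq as Kgd4, encodes a component of the 2-oxoglutarate dehydrogenase complex. With the first pair moved to the large subunit and Mrps36 left out, the ratio was 0.502 and 0.501 with carfilzomib and 0.504 and 0.512 with vehicle, a much smaller gap. The medians then stood at 0.18 for the large and 0.19 for the small subunit, so their order turned round.

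**Figure D2:**
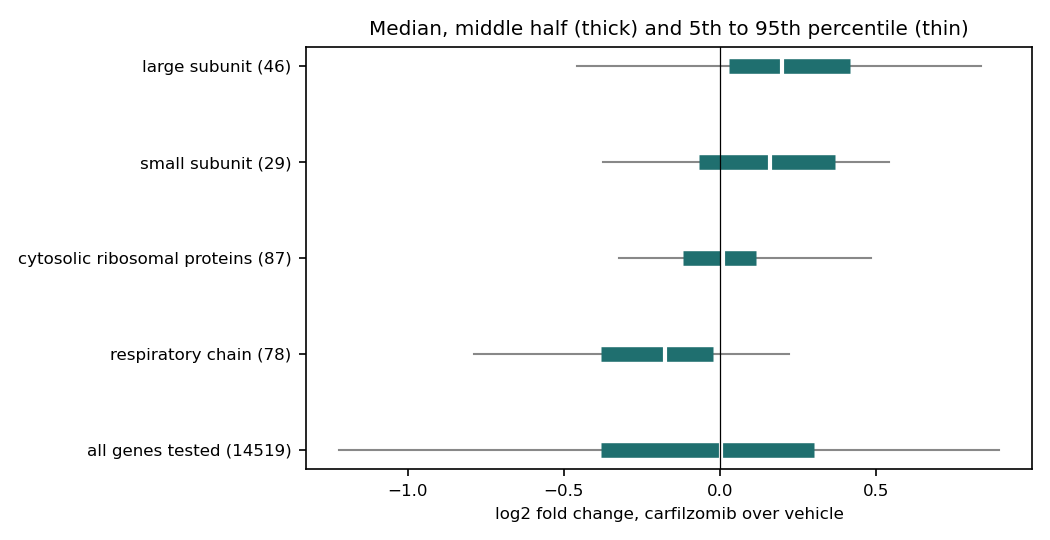
Log2 fold change, carfilzomib over vehicle, in each group of genes, with the number tested in brackets; the white tick is the median, the thick bar the middle 50% and the thin line the 5th to 95th percentile. Both subunits have medians above 0 (0.20 and 0.16), cytosolic ribosomal proteins lie at 0.01, respiratory chain genes at −0.18 and all genes at 0.00.

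Other nuclear genes tied to protein synthesis or respiration gave other medians. Of 87 cytosolic ribosomal protein genes tested, 23 were higher and 21 lower, with a median log2 fold change of 0.01. Of 78 nuclear genes for respiratory chain and ATP synthase subunits, 7 were higher and 43 lower, with a median of −0.18. Shares called higher were thus 46.7% for mitochondrial ribosomal proteins, 26.4% for cytosolic ribosomal proteins and 8.97% for the respiratory chain. The share over all genes tested was 30.6%. Shares called lower were 14.7%, 24.1% and 55.1% in the same order, beside 30.1% of all genes. These lists were set side by side as counts, and no test of their difference was made.

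Levels per gene length are given in FPKM, the only scale here on which genes can be compared with each other. The median over large-subunit genes was 39.3 and 38.7 FPKM in carfilzomib libraries and 36.4 and 36.6 FPKM in vehicle libraries. Over small-subunit genes it was 35.8 and 37.7 FPKM with carfilzomib and 31.7 and 32.6 FPKM with vehicle. In both subunits the medians of the groups did not overlap. The highest single level was that of Mrpl17, whose bacterial counterpart lines the exit of the peptide tunnel, with 209 and 205 FPKM with carfilzomib and 150 and 157 FPKM with vehicle. Next among large-subunit genes by mean level came Mrpl49 at 88.2 FPKM and Mrpl33 at 81.9 FPKM over the 4 libraries. Among small-subunit genes, Mrps21 was highest at 92.8 FPKM, followed by Mrps7 at 80.8 FPKM and Mrps18a at 56.8 FPKM.

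**Figure D3:**
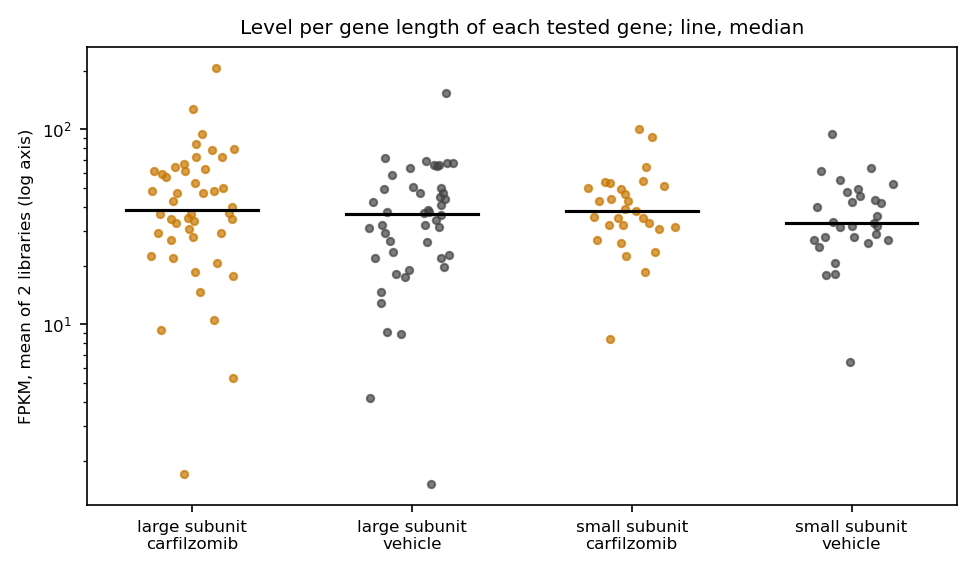
Level per gene length in FPKM, mean of 2 libraries, on a log axis, for each gene tested, by subunit and group, with carfilzomib left of vehicle; the black line is the median of the points. The points of the groups overlap over most of their range, and Mrpl17 is the highest point in the large subunit.

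The gene with the largest change was Mrpl49, a large-subunit protein without a bacterial counterpart. It had 57.9 and 57.4 CPM in the carfilzomib libraries and 23.7 and 22.3 CPM in the vehicle libraries. The carfilzomib values lay far above both vehicle values, and the fold was 2.51 (log2 fold change 1.33, SE 0.063, edgeR adjusted p = 1.4e-10). Mrpl55, the counterpart of bacterial L31 at the central protuberance, had 48.2 and 45.8 CPM with carfilzomib and 24.7 and 25.5 CPM with vehicle. Mrpl51, another protein found only in mitochondria, had 78.4 and 80.1 CPM with carfilzomib and 42.4 CPM in each vehicle library. Both rose by a log2 fold change of 0.90, with edgeR adjusted p = 1.45e-08 for Mrpl55 and 5.49e-09 for Mrpl51.

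Smaller rises followed in the large subunit. Mrpl57, a mitochondria-specific protein, had 29.7 and 32.1 CPM with carfilzomib and 18.6 and 22.3 CPM with vehicle, a log2 fold change of 0.59. Mrpl20, whose bacterial counterpart binds the large ribosomal RNA early in assembly, had 45.6 and 42.5 CPM with carfilzomib and 28.6 and 30.3 CPM with vehicle, a log2 fold change of 0.58. In both genes the groups were clear of each other. The abundant Mrpl17 had 198 and 196 CPM with carfilzomib and 147 and 153 CPM with vehicle, and rose by 0.39 on the log2 scale (SE 0.044, edgeR adjusted p = 1.76e-06). Mrpl33, the counterpart of bacterial L33, had 41.8 and 41.3 CPM with carfilzomib and 32.2 and 29.7 CPM with vehicle, a log2 fold change of 0.43.

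The deepest fall was in Mrpl12, the counterpart of bacterial L7/L12, which forms the mobile stalk that recruits translation factors and has also been described as a partner of the mitochondrial RNA polymerase. It had 40.5 and 43.6 CPM in the carfilzomib libraries and 75.4 and 79.8 CPM in the vehicle libraries. Neither carfilzomib value came near the vehicle values (log2 fold change −0.88, SE 0.064, edgeR adjusted p = 1.65e-08). The other proteins of the stalk base went the other way. Mrpl10, which anchors the stalk, had 72.5 and 67.7 CPM with carfilzomib and 62.0 and 62.6 CPM with vehicle, a log2 fold change of 0.17 (edgeR adjusted p = 0.0227). This small rise lost its call with DESeq2 (adjusted p = 0.116), with the replicate block (0.053) and without carfilzomib replicate 1, vehicle replicate 1 or vehicle replicate 2 (0.215, 0.0725 and 0.0575). The row spelled mrpl11 in lower case, which the spelling rule leaves out, had 41.5 and 45.2 CPM with carfilzomib and 28.9 and 28.2 CPM with vehicle, a log2 fold change of 0.60. The stalk thus held the lowest member beside mrpl11, which was clearly higher.

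Mrpl23, a protein at the exit of the peptide tunnel, also fell. It had 19.8 and 19.2 CPM with carfilzomib and 31.9 and 33.1 CPM with vehicle (log2 fold change −0.74, SE 0.072, edgeR adjusted p = 4.4e-07). At the same exit, Mrpl17, Mrpl22 and Mrpl45 were higher, with log2 fold changes of 0.39, 0.48 and 0.45, and Mrpl47 did not pass at 0.02. Mrpl40, a protein of the central protuberance, had 22.4 and 21.1 CPM with carfilzomib and 29.4 and 31.7 CPM with vehicle, a log2 fold change of −0.49. Of 8 genes for the central protuberance, which faces the head of the small subunit, Mrpl40 was the 1 lower (12.5%). There, 4 were higher (50%: Mrpl27, Mrpl48, Mrpl55 and Mrpl58) and 3 did not pass. These shares were near those of the whole large subunit, 47.8% higher and 10.9% lower, beside 30.6% and 30.1% of all genes tested. With the replicate block the higher count was 5. The call of Mrpl27 was lost without carfilzomib replicate 2, at an edgeR adjusted p of 0.0566. Mrpl14, whose protein lies on the face that joins the small subunit, had 23.5 and 25.9 CPM with carfilzomib and 32.4 and 31.3 CPM with vehicle, a log2 fold change of −0.36. Mrpl28 had the smallest called fall in the large subunit, at 33.8 and 33.3 CPM with carfilzomib and 39.2 and 40.5 CPM with vehicle, a log2 fold change of −0.25. Its call was lost with DESeq2, at an adjusted p of 0.0661.

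In the small subunit the largest rise was in Mrps7, the counterpart of bacterial S7, which nucleates the head of the subunit. It had 97.1 and 90.8 CPM in carfilzomib libraries and 58.1 and 59.9 CPM in vehicle libraries. The groups were well apart (log2 fold change 0.67, SE 0.059, edgeR adjusted p = 1.29e-07). Mrps33, a mitochondria-specific protein, had 41.0 and 41.6 CPM with carfilzomib and 28.0 and 30.2 CPM with vehicle, a log2 fold change of 0.50. Mrps23, likewise mitochondria-specific, had 53.4 and 48.7 CPM with carfilzomib and 39.6 and 37.0 CPM with vehicle, a log2 fold change of 0.41.

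Mammals have 3 paralogs of bacterial S18, and they did not move together. Mrps18c had 30.9 and 33.4 CPM with carfilzomib and 21.7 and 21.8 CPM with vehicle, a log2 fold change of 0.57. Mrps18b had 48.0 and 46.0 CPM with carfilzomib and 32.7 and 35.9 CPM with vehicle, a log2 fold change of 0.45. Mrps18a, the paralog built into the large subunit, had 39.6 and 36.9 CPM with carfilzomib and 49.8 and 50.1 CPM with vehicle, a log2 fold change of −0.39 (SE 0.062, edgeR adjusted p = 7.83e-05). The paralogs of the small subunit were higher and the paralog of the large subunit was lower, each with groups that did not overlap.

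The falls in the small subunit were shallower than those in Mrpl12 and Mrpl23. Mrps24, the counterpart of bacterial S3 near the entry of the messenger, had 24.3 and 22.9 CPM with carfilzomib and 30.1 and 32.8 CPM with vehicle, a log2 fold change of −0.41. Mrps36 had 36.5 and 39.0 CPM with carfilzomib and 47.3 and 49.7 CPM with vehicle, a log2 fold change of −0.36. Mrps16 and Mrps2, counterparts of bacterial S16 and S2, had log2 fold changes of −0.32 and −0.27, and Mrps26 completed the lower genes at −0.23. The call of Mrps26 was lost with DESeq2 (adjusted p = 0.11) and, at edgeR adjusted p-values of 0.051 to 0.0563, without carfilzomib replicate 1, carfilzomib replicate 2 or vehicle replicate 2. The most abundant small-subunit gene, Mrps21, had 40.2 and 37.9 CPM with carfilzomib and 41.1 and 40.7 CPM with vehicle and did not pass (log2 fold change −0.07, edgeR adjusted p = 0.369). Mrps30 did not pass either, at a log2 fold change of 0.06 (edgeR adjusted p = 0.42).

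**Figure D4:**
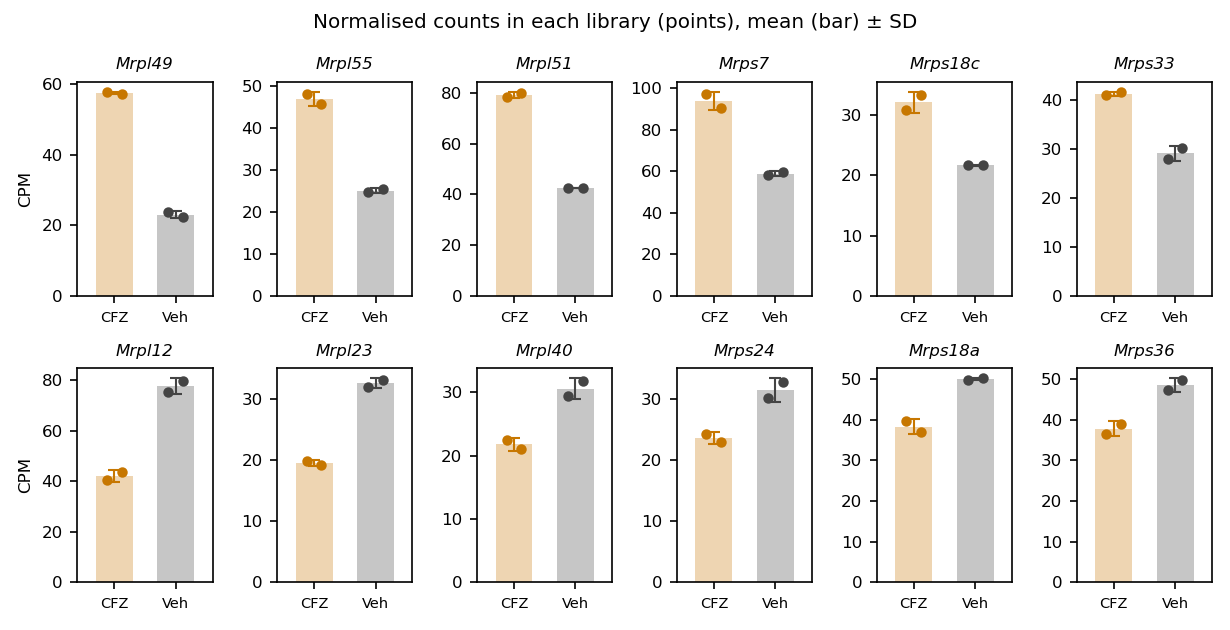
CPM of 12 members in each library (points) with the mean (bar) and SD of 2 libraries, carfilzomib (CFZ) left of vehicle (Veh); each panel has its own scale starting at 0. The upper row shows the 3 largest rises of each subunit and the lower row the 3 largest falls. The genes were picked from called members whose groups did not overlap, so in every panel the points are apart by choice.

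Grouping by origin gave medians above 0 in each class. Over all genes tested, 30.6% were higher and 30.1% lower. Among large-subunit genes with a bacterial counterpart, 14 of 27 members were higher (51.9%) and 4 lower (14.8%), with a median log2 fold change of 0.21. With the lower-case rows this class had 16 higher and 4 lower, and 12 and 3 with DESeq2. Among proteins of the large subunit classed as mitochondria-specific, Mrps30 and Mrps18a included, 8 of 21 were higher (38.1%) and 2 lower (9.52%). Their median was 0.16, and the counts were the same with DESeq2. Mrps18a here, and Mrps18b in the small subunit, were classed in this way although both are paralogs of bacterial S18. In the small subunit, 7 of 16 genes with a bacterial counterpart were higher (43.8%) and 3 lower (18.8%), with a median of 0.19. Of 10 mitochondria-specific genes, 6 were higher (60%) and 1 lower (10%), with a median of 0.23. With DESeq2 these counts were 6 and 3, and 5 and 0. Subunits whose symbols lie outside the naming rule were mixed. Aurkaip1 (log2 fold change 0.26) and Chchd1 (0.18), both small-subunit proteins, were higher, and Ptcd3, a small-subunit protein that also binds RNA, was lower at −0.17. The calls of Chchd1 and Ptcd3 were lost with DESeq2 (adjusted p = 0.248 and 0.106) and, with edgeR, without carfilzomib replicate 1 (0.389 and 0.0508) and with the replicate block (0.0841 and 0.0619). That of Chchd1 was also lost without vehicle replicate 1 (0.202), and that of Ptcd3 with library size alone (0.0624) and without carfilzomib replicate 2 or vehicle replicate 2 (0.171 and 0.172). Dap3, the small-subunit GTP-binding protein, and Gadd45gip1 of the large subunit did not pass, at −0.05 and 0.13.

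Replicates of most members lay close together. In 72 of 75 genes the libraries of each group were within 1.5-fold of each other, and among these the highest ratio was 1.33. The remaining 3, Mrpl1, Mrpl30 and Mrpl36, are named because of this spread and were chosen after their values were seen. Mrpl1, the counterpart of the L1 stalk protein, had 206 and 0 estimated counts with carfilzomib and 69.3 and 92.8 with vehicle. Its level thus lay above and below vehicle within 1 group, and it did not pass (edgeR adjusted p = 0.909). Without carfilzomib replicate 2 its log2 fold change was 1.31 (edgeR adjusted p = 2.14e-05), and without carfilzomib replicate 1 it was reversed. Mrpl36 had 16.3 and 6.62 CPM with carfilzomib and 7.33 and 7.36 CPM with vehicle and did not pass (edgeR adjusted p = 0.482). Without carfilzomib replicate 2 it was higher by 1.15 on the log2 scale (edgeR adjusted p = 2.1e-06). Mrpl30 had 3.83 and 4.72 CPM with carfilzomib and 2.85 and 4.87 CPM with vehicle, so its groups overlapped.

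These 3 genes carry estimated counts with decimals, whose source is not given. Decimals were found in 22 of the 76 members and whole counts in 54. Of the 54 with whole counts, 23 were higher (42.6%) and 11 lower (20.4%), beside 31.7% and 32% of all tested genes with whole counts. Of the 21 tested members with decimals, 12 were higher (57.1%) and 0 lower, beside 28.7% and 26.7% of all tested genes with decimals. Mrpl51, Mrpl57, Mrpl33 and Mrps7 are among those with decimals, and Mrpl49, Mrpl55, Mrpl17, Mrpl12 and Mrpl23 are among those with whole counts. RefSeq names pseudogenes for 23 of the members, 40 in all, with 2 for Mrpl1 and 9 for Mrpl30. In all, 6 of these 23 members had decimals, against 16 of the 53 without a named pseudogene. Whether reads shared between rows bear on these values was not tested.

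In RefSeq, 16 members overlap another protein-coding gene, and the sources used here do not say whether reads were counted by strand, so reads from overlapping genes cannot be told apart. The overlapping genes moved with some members and apart from others. Mrpl49 overlaps Syvn1, which had a log2 fold change of 0.06 and did not pass. Mrpl55 overlaps Guk1 and Mrpl57 overlaps Ska3, and both neighbours were lower, at −0.47 and −0.85. Mrpl27 overlaps Eme1, lower at −1.19. Mrpl55, Mrpl57 and Mrpl27 were themselves called higher, opposite to these neighbours. In 4 overlaps both genes were called in the same direction. Over all genes tested, 60.7% were called, 30.6% higher and 30.1% lower, and overlaps among all genes were not counted. Mrpl14 and Tmem63b were both lower (−0.36 and −0.44), while Mrps6 and Slc5a3 (0.38 and 1.56), Mrpl48 and Rab6a (0.34 and 0.32) and Mrpl43 and Twnk (0.27 and 0.18) were higher. The call of Mrpl43 was lost without carfilzomib replicate 1 or vehicle replicate 1 (edgeR adjusted p = 0.0506 and 0.0677). That of Twnk was lost with DESeq2 (adjusted p = 0.295), with the replicate block (0.0716) and without carfilzomib replicate 1, carfilzomib replicate 2 or vehicle replicate 2 (0.12, 0.166 and 0.14). Mrpl12, Mrpl1 and Mrpl30 have no such overlap.

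Promoter sequence was available from RefSeq (build GRCr8, 250 bases before to 50 after the annotated start) for 61 of the 76 members. The 5 that follow, picked after the values were seen, are those of the gene with the largest rise, the gene with the largest fall, the most abundant member, a gene that shares its start region with a proteasome gene, and the 1 member window with an NRF1 core, a CCGGAAG and an AAGATGGC. Capitals mark matches on either strand to CGCATGCG (the core of the site of nuclear respiratory factor 1), CCGGAAG (the core bound by ETS proteins such as GABP) or AAGATGGC (a short form of the YY1 site, AAGATGGCG, searched after the longer form had been counted and contained in it). Mrpl49 lies at chr1:212779278-212779577 on the minus strand, Mrpl12 at chr10:106256496-106256795 on the plus strand, Mrpl17 at chr1:169575650-169575949 on the minus strand, Mrpl32 at chr17:55260401-55260700 on the plus strand and Mrps18b at chr20:2842756-2843055 on the plus strand.
Mrpl49: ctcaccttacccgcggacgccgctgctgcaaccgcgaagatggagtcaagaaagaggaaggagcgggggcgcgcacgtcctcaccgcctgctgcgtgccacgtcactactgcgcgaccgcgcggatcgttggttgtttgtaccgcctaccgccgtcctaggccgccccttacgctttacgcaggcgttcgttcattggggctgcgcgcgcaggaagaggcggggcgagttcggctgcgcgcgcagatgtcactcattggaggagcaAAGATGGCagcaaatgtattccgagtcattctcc
Mrpl12: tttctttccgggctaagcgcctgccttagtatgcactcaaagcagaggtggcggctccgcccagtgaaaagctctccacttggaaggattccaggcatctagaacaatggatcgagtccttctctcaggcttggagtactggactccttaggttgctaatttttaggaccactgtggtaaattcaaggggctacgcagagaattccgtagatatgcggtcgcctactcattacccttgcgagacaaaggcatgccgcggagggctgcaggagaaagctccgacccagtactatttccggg
Mrpl17: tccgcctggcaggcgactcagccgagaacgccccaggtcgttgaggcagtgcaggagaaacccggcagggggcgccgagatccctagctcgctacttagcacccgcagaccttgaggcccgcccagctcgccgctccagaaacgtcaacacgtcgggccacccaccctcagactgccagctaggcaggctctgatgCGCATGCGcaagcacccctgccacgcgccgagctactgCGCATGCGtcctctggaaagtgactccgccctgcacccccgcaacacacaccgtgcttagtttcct
Mrpl32: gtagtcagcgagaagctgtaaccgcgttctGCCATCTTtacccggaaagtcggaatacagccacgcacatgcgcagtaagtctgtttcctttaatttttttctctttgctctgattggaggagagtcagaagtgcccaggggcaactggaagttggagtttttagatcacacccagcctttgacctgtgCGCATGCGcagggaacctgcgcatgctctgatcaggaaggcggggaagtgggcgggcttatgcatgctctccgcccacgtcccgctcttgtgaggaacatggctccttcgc
Mrps18b: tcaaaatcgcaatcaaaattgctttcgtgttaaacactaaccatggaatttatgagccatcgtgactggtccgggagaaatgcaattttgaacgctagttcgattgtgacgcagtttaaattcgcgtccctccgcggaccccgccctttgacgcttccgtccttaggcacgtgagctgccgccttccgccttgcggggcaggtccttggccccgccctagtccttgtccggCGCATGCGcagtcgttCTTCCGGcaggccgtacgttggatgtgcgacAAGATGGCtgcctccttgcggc

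Mrpl17 holds the NRF1 core at 2 places, Mrpl12 holds none of the motifs, and Mrpl49 holds only the short AAGATGGC just after its start. The NRF1 core was present in 6 of 61 member windows (9.84%), beside 3.43% of the 11307 windows of tested genes. CCGGAAG was present in 21 (34.4%, beside 16.9%) and AAGATGGCG in 9 (14.8%, beside 3.48%). The short AAGATGGC was present in 15 (24.6%, beside 5.21%). All these letter strings were thus commoner in member windows than in the windows of tested genes at large. The median GC content was 56% in member windows and 60.7% in those of tested genes. A match describes letters only, not a bound site.

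The motifs were also counted by call, among 27 higher, 10 lower and 24 members that did not pass. The NRF1 core was in 5, 0 and 1 of these. The 5 were Mrpl10, Mrpl17, Mrpl22, Mrpl32 and Mrps18b. CCGGAAG was in 10, 3 and 8. AAGATGGCG was in 0, 1 and 8, the lower gene being Mrps18a. The short AAGATGGC, which contains no more than part of that string, was in 6 (22.2%), 1 (10%) and 8 (33.3%). Higher genes without the long form thus included some with the short form. These are counts of few genes, given without a test.

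Of the 61 members with a window, 18 (29.5%) start within 1000 bases of a gene on the opposite strand, beside 15.3% of tested genes. All of them were examined after the values of the members had been seen. Of the 17 members whose partner was tested, 6 were called together with the partner, 4 of them in the same direction. Mrps11 and Mrpl46, partners of each other, both enter the 17. Over all genes tested, 60.7% were called, 30.6% higher and 30.1% lower, and pairs among all genes were not counted. Mrpl32 starts 210 bases from Psma2, a subunit of the proteasome core, and both were higher, at log2 fold changes of 0.47 and 1.58. Psma2 belongs to the complex that carfilzomib inhibits, and proteasome genes are driven after inhibition by the factor Nfe2l1, a protein that shares the abbreviation NRF1 but is not nuclear respiratory factor 1. Mrps18b and its neighbour Ppp1r10 were both higher (0.45 and 0.28), and Mrpl40 and its neighbour Hira were both lower (−0.49 and −0.30), though the call of Hira was lost without carfilzomib replicate 2 or vehicle replicate 1 (edgeR adjusted p = 0.144 and 0.135). Mrpl41 and Pnpla7 were both higher as well (0.29 and 1.09).

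In other pairs the partner was lower or did not pass. Mrpl49 starts 186 bases from Fau, which encodes a cytosolic ribosomal protein fused to a ubiquitin-like protein, and Fau did not pass at a log2 fold change of 0.05. Mrpl51 starts 50 bases from Ncapd2, a condensin subunit, which was lower at −0.55. Mrpl27 starts 44 bases from Eme1, a DNA repair nuclease subunit that it also overlaps, and Eme1 was lower at −1.19. Mrps7 starts 269 bases from Gga3, which did not pass at −0.11. Mrps18c starts 72 bases from Helq, a DNA helicase gene, which did not pass at 0.24 (edgeR adjusted p = 0.0594). In 1 pair both genes are members: Mrps11, of the small subunit, was higher at 0.40, and Mrpl46, of the large subunit, had 0.24 and did not pass (edgeR adjusted p = 0.0592).

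**Figure D5:**
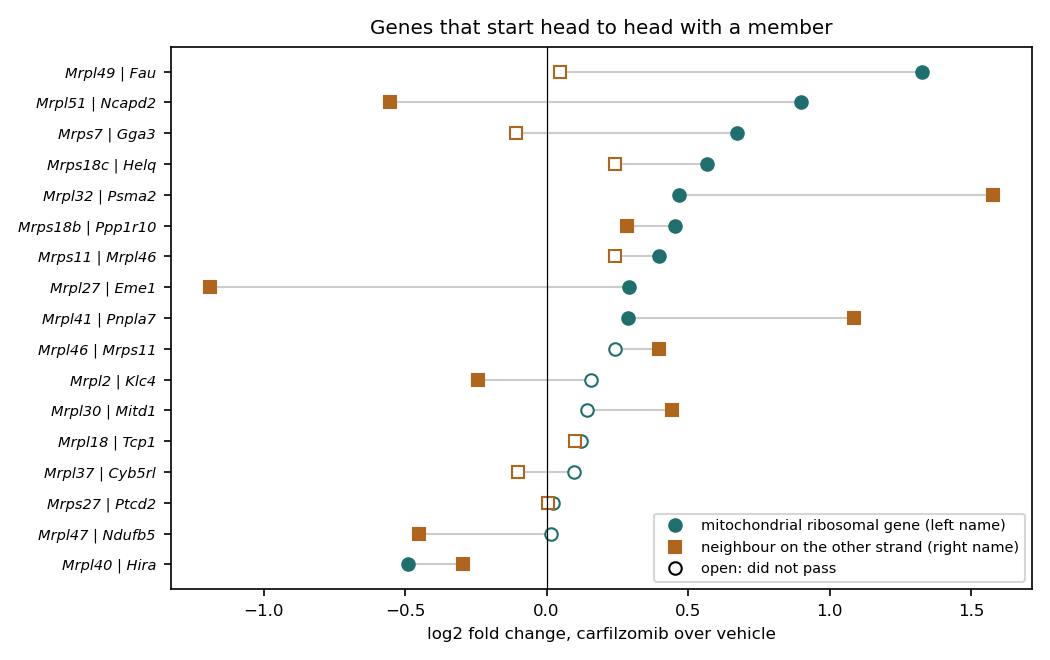
Log2 fold change, carfilzomib over vehicle, of members (circles) and of the gene that starts within 1000 bases on the opposite strand (squares), 1 row per pair and the Mrps11 and Mrpl46 pair shown from both sides; filled symbols passed the edgeR test. Mrpl49, Mrpl51 and Mrpl27 lie far to the right of their neighbours, and Psma2 lies far to the right of Mrpl32.

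Genes that build, feed or regulate the mitochondrial ribosome were read from lists chosen with earlier results known. Of 26 assembly and ribosomal RNA modification genes, 8 were higher and 1 lower (5 and 1 with DESeq2), and the median log2 fold change was 0.09. The share called higher, 30.8%, was near the 30.6% of all genes tested, and the share called lower was 3.85%, beside 30.1%. Rpusd3, a pseudouridine synthase family member, had 25.8 and 24.6 CPM with carfilzomib and 12.2 and 14.2 CPM with vehicle, a log2 fold change of 0.93. The lower gene, Mrm1, a methyltransferase of the large ribosomal RNA, had 8.44 and 8.42 CPM with carfilzomib and 13.7 and 15.5 CPM with vehicle, a log2 fold change of −0.79. Of 15 translation factors and related proteins, 4 were higher (26.7%) and 2 lower (13.3%), with a median of 0.08. The lower count was 1 with DESeq2 and without carfilzomib replicate 2 or vehicle replicate 1, and 3 without vehicle replicate 2. The release factor family gene Mtrf1 was higher at 0.72, and Oxa1l, which inserts newly made proteins into the inner membrane, was lower at −0.29.

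Genes for mitochondrial transcription, DNA maintenance and RNA processing moved more. Of 17, 12 were higher (70.6%, beside 30.6% of all genes) and 3 lower (17.6%, beside 30.1%), with a median log2 fold change of 0.28. Many of these rises were small: with DESeq2 5 were higher and 2 lower, with the replicate block 8 and 3, without carfilzomib replicate 1 6 and 2, without vehicle replicate 1 7 and 2, and without either of the other libraries 8 and 3. Elac2, which trims the ends of mitochondrial tRNAs, had 80.3 and 82.0 CPM with carfilzomib and 37.1 and 40.3 CPM with vehicle, a log2 fold change of 1.07 (SE 0.063, edgeR adjusted p = 1.7e-09). Polg, the catalytic subunit of the mitochondrial DNA polymerase, was lower at −0.38. Among 10 genes of the outer membrane and matrix, 3 were higher and 3 lower (1 lower with the replicate block and without carfilzomib replicate 1, carfilzomib replicate 2 or vehicle replicate 2), with Vdac3, a channel of the outer membrane, at 0.57 and Tomm40, the pore of the import complex, at −0.32. Messages encoded by mitochondrial DNA, which the ribosome translates, were not analysed here.

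Of 10 transcription regulators linked to these genes, 0 were higher and 8 lower (80%, beside 30.1% of all genes), with a median log2 fold change of −0.44. Nrf1, nuclear respiratory factor 1, had 28.5 and 31.4 CPM in carfilzomib libraries and 37.5 and 41.2 CPM in vehicle libraries, a log2 fold change of −0.40 (SE 0.072, edgeR adjusted p = 0.000224). Its coactivators Ppargc1b, Pprc1 and Ppargc1a were lower at −1.09, −0.39 and −0.32, and the nuclear receptor gene Esrra was lower at −0.57. The GABP partner genes Gabpb1 and Gabpb2 were lower at −0.52 and −0.49, as was Myc at −0.49. The call of Ppargc1a was lost with DESeq2 (adjusted p = 0.0511) and without carfilzomib replicate 2 (0.0588), and that of Gabpb2 with DESeq2 (0.119) and without carfilzomib replicate 1 or vehicle replicate 1 (0.175 and 0.0872). Gabpa, the DNA-binding subunit of GABP, and Yy1 did not pass, each at 0.02. These are transcript levels, and the activity of the factors was not measured.

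The authors' deposited table of their own comparison holds 6063 genes with a largest q-value of 0.0499. Among them are 34 of the 76 members, 26 higher (15 large-subunit and 11 small-subunit) and 8 lower (4 of each), in the authors' deposited table. The expression table holds 18699 genes, and the 6063 were not split by direction here. All 34 were also called here in the same direction. Both comparisons rest on the same libraries, so this match is not independent evidence.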

How the data were processed

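RNA was sequenced from 4 libraries of neonatal rat ventricular myocytes, grouped and numbered by their sample titles. Columns named as a control in the deposited tables were matched by number to the vehicle samples, the labels naming no other control. The authors deposited raw estimated counts, per the file headers. In each library 28.5% to 28.9% of genes had decimals, that is, lay over 1e-06 from the nearest integer. No source used here names what produced them. The submitters' processing notes name the build Rnor_6.0, R 3.3.2, DESeq2, featureCounts 1.6.0, Bowtie2, HISAT, cutadapt 2.0 and FastQC 0.11.8, without roles. The authors also deposited FPKM, used here for levels per gene length, and a table of log2 fold changes with p-values and q-values, quoted only as theirs. A further 10 columns of expression values were left unused.

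Counts were rounded, filtered with filterByExpr (minimum count 10, minimum total 15, 14519 of 18699 genes kept) and scaled by TMM (factors 0.987 to 1.01). The groups were compared with edgeR 4.0.16 (limma 3.58.1, R 4.3.3), a robust quasi-likelihood F test with Benjamini-Hochberg adjustment over all genes at 0.05. The test was tried on simulated data first. Each standard error is the size of the log2 fold change over the root of F. The common coefficient of biological variation from edgeR was 0.0465, and the median standard error of the members was 0.067. Replicates differed by more than sampling noise (chi-square per degree of freedom 2.99 for carfilzomib, 3.32 for vehicle) and were kept apart. Members were set by the spelling of their symbols, while the context lists were chosen with earlier results of these data known. Named per subunit were the 5 largest called rises and falls among members whose groups did not overlap, and the 3 highest mean FPKM. Also named were members failing the filter, Mrpl12, Mrps30, Mrps18a, Mrps36, subunits with other symbols and regulators. Each context list gave the largest called change in each direction at 10 CPM or more. RefSeq tables (GRCr8) gave promoters, neighbours and names only, since the files use another build. Alternatives were DESeq2 1.42.0, limma-voom, other scalings and filters, the replicate block, leaving out each library, whole counts only and other memberships.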

Additional observations from a re-analysis of the deposited data

How the results depend on the processing

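Of 46 calls among the members, 46 were kept with limma-voom, with RLE scaling, with library size alone, without a filter and with a stricter filter, 38 with DESeq2 1.42.0 and 40 to 41 when 1 library was left out, and no called member changed sign. Leaving out a library left 3736 to 4130 genes higher and 3624 to 3844 lower over all genes, and DESeq2 left 3340 and 3149. The median of the large subunit was 0.19 with limma-voom, 0.23 with library size alone (which moved the median of all genes by 0.03), 0.16 with whole counts only, 0.18 with Mrps30 and Mrps18a moved and Mrps36 left out, 0.17 without members that overlap a protein-coding gene (chosen after seeing the data), and 0.19 to 0.22 when a library was left out. For the small subunit it was 0.19 with library size alone, 0.19 with genes moved, 0.13 without overlaps, and 0.11 to 0.18 when a library was left out. With whole counts only, 12 large-subunit genes were higher, and 14 without overlaps; both settings keep fewer genes. Adding the lower-case rows mrpl11, mrpl24 and mrpl9 (chosen after seeing the data) gave 24 higher and 5 lower. Deviations of carfilzomib replicate 1 and vehicle replicate 1 from their group means had a correlation of −0.02 over genes. With 2 libraries a group, replicate 2 mirrors replicate 1 and adds nothing to this value. The numbers are thus not shown to pair. With the replicate block 44 member calls were kept and the large-subunit median was 0.18. That setting gave 22 higher and 5 lower in the large subunit, against 12 and 6 in the small subunit. Without carfilzomib replicate 1, Mrpl1 had a log2 fold change of −9.35 (edgeR adjusted p = 5.51e-08), fitted against 0 counts in the library that remained, and without carfilzomib replicate 2 it had 1.31; the cause was not tested. Of 26 genes named by rule or for their spread, 23 kept direction and call in all 11 refits, the exceptions being Mrpl1, Mrpl36 and Mrpl28. Mrpl30, also named for its spread, was not among these 26 genes. With 2 libraries a group, the lone library after leaving 1 out is assumed to vary like the other group.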
